A study of Mus musculus with 4 samples.

Results

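Versican and the genes that make, bind or cut hyaluronan form a set of 10 genes, taken by name from a table of 54532 mouse genes. They are Vcan and Acan (the proteoglycans versican and aggrecan), Has1, Has2 and Has3 (the hyaluronan synthases), Cd44 (the main cell-surface hyaluronan receptor), Hapln1, Hapln3 and Hapln4 (link proteins) and Hyal2 (a hyaluronidase). Expression was measured by RNA sequencing in 4 libraries of mouse primary lung fibroblasts, 2 labelled with the genotype Calu-WT (WT below) and 2 with Calu-KO. Calumenin, the product of Calu, binds calcium in the secretory pathway, and the series is concerned with protein folding, vimentin and fibrosis. The titles of the WT libraries carry the letters NC and those of the Calu-KO libraries the letters KD. No label states how the gene was targeted or how the control cells were treated. The labels also do not state the age or strain of the mice, or whether replicates are different mice or cultures. The p-values therefore measure only the spread between these libraries, which may be technical.

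Hyaluronan is a long unsulphated sugar chain that synthases in the plasma membrane extrude into the matrix. Versican and aggrecan belong to the hyalectans, large chondroitin sulphate proteoglycans whose N-terminal domain grips hyaluronan, and link proteins clamp that junction. CD44 tethers hyaluronan to the cell, and HYAL2, anchored at the cell surface, cuts long chains into shorter ones. Versican-rich provisional matrix is known from developing and injured lung, where fibroblasts are a main source of it.

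Levels are given in FPKM, fragments per kilobase of gene, scaled between libraries by the authors. Calu itself measured 178 and 177 FPKM in WT against 14.9 and 10.9 in Calu-KO (-3.70 ± 0.17 in log2(FPKM + 1), adjusted p = 0.00493, limma). The 4 libraries held 15635448 to 16510048 reads in genes. The deposited scaling does not follow these totals: 1 read per kb is worth 0.0684 FPKM in Calu-KO replicate 2, which held 16038560 reads, and 0.0591 to 0.0611 FPKM in the other libraries. Calu-KO replicate 2 stood apart in composition, with 4.0% of its reads in mitochondrial genes against 2.43% to 2.53% in the other libraries. Among 8 fibroblast markers Vim, Col1a1, Col1a2, S100a4 and Pdgfra reached 1 FPKM and none was called (median change 0.04; Col1a2 had the largest, 0.67 ± 0.13, adjusted p = 0.0721, limma). Thy1 had 2 to 6 reads per library, and Dcn and Lum were listed with 0 reads in every library. Of 6 transcription factor genes of lung mesenchyme, Gli1 alone reached 1 FPKM (1.81 ± 0.104 in WT and 1.66 ± 0.260 in Calu-KO, SD, n = 2 each), and the other 5 had at most 5 reads in any library. Gnpnat1, an enzyme that every cell needs for UDP-N-acetylglucosamine, was listed with 8 reads in WT replicate 1, 1 in Calu-KO replicate 1 and 0 in both others. A gene listed with 0 reads in this table is therefore reported as such, and not as silent.

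**Figure D1:**
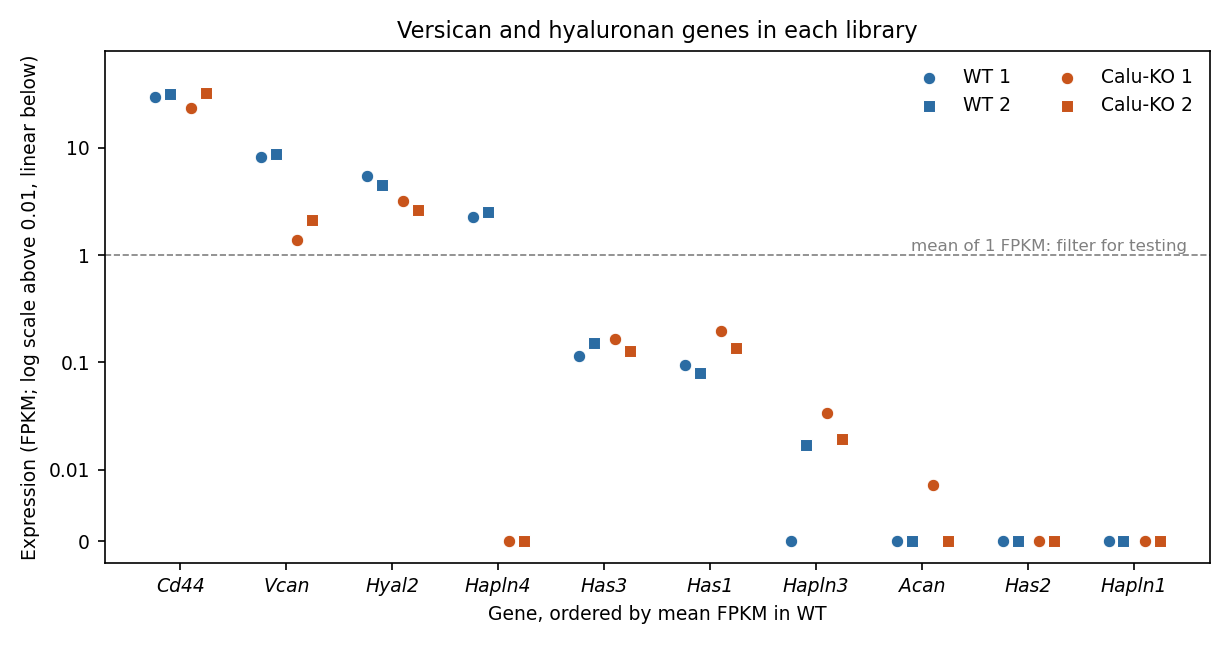
Expression of the 10 genes in FPKM (vertical axis, logarithmic above 0.01 and linear below), one point per library; blue marks WT and orange Calu-KO, circles replicate 1 and squares replicate 2. Vcan and Hapln4 lie lower in both Calu-KO libraries (Hapln4 at 0), Cd44 overlaps between groups, and 6 genes lie under 1 FPKM in every library.

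The 10 genes fell into expressed and barely detected ones, as the plot of expression by library shows. In WT the order of mean levels per length was Cd44 at 30.5 ± 1.44 FPKM, Vcan at 8.53 ± 0.429, Hyal2 at 4.98 ± 0.637 and Hapln4 at 2.38 ± 0.172 FPKM (SD, n = 2 each). Between each of these 4 and the next the WT libraries did not overlap. The remaining 6 genes lay under 0.2 FPKM in every library. In Calu-KO the order was Cd44 at 27.9 ± 6.07, Hyal2 at 2.91 ± 0.409 and Vcan at 1.76 ± 0.519 FPKM, so that Vcan and Hyal2 had changed places, while Hapln4 had 0 reads. Only genes whose 4 libraries averaged 1 FPKM or more entered the test, which 4 of the 10 did. Hapln4 reached it through the WT libraries alone, so its difference was built into passing.

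Vcan was lower in both Calu-KO libraries. The gene (ENSMUSG00000021614) lies on the minus strand of chromosome 13, 89655312 to 89742509 in mm10, and its 9 annotated transcripts cover 14462 exonic bases, the length used in the deposited FPKM. It had 8.22 FPKM in WT replicate 1 and 8.83 in WT replicate 2, against 1.39 in Calu-KO replicate 1 and 2.12 in Calu-KO replicate 2. The groups did not overlap, and the lowest WT value was above the highest Calu-KO value by far more than either pair differed. These values rest on 1947 and 2121 reads in WT and on 340 and 449 in Calu-KO. The mean was 4.85-fold lower in Calu-KO, a change of -1.80 ± 0.17 (SE) in log2(FPKM + 1), with an adjusted p of 0.0266 (limma, adjusted over 11885 genes). In WT 50.5% of tested genes had a lower level than Vcan, and in Calu-KO 10.6%. The splice forms of versican differ in how many chondroitin sulphate chains they carry, and gene-level values do not tell them apart. In bulk RNA, fewer cells that express a gene and less of its RNA per cell cannot be told apart either.

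Of the 4 tested genes, Vcan and Hapln4 were called lower (adjusted p at or under 0.05, limma) and none higher. Because Hapln4 entered through WT alone, this count supports nothing about the set. Over all tested genes 1.83% were called lower and 0.942% higher. The call on Vcan ended without WT replicate 1 (adjusted p = 0.0565, limma) and without WT replicate 2 (0.0746), where the spread within a group comes from the Calu-KO pair alone, and it also ended with no filter on low values (0.113). Without Calu-KO replicate 2, the library that stood apart in composition, the spread within a group comes from the WT pair alone. There the change of Vcan was -1.99. Over 12 alternatives its change stayed between -2.32 and -1.61. In the alternatives that kept all 4 libraries its adjusted p lay between 0.00379 and 0.113 (limma).

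Some markers of other cell types also differed between the groups. Of 6 macrophage markers 2 were tested, and Lyz2 was called lower (6.91 ± 0.451 against 1.48 ± 0.325 FPKM, adjusted p = 0.0254, limma). The 6 summed to 11.07 and 12.2 FPKM in the WT libraries and to 4.17 and 4.12 in the Calu-KO libraries, with Adgre1 and Mrc1 at 0 reads throughout and Ptprc at 1, 1, 0 and 0 reads. Of 6 mesothelial markers 2 were tested, and Krt8 was called lower (2.51 ± 0.332 against 0.0652 ± 0.00671 FPKM, adjusted p = 0.0274, limma), but like Hapln4 it reached the filter through WT alone. These 6 summed to 35.9 and 32.7 FPKM in WT and to 25.4 and 22.6 in Calu-KO, nearly all of it Msln, with Upk3b at 0 reads in WT and Wt1 at 0 reads in 3 of the 4 libraries. Of 7 pericyte and smooth muscle markers 4 were tested. Mcam was called higher (2.60 ± 0.242 against 15.7 ± 3.85 FPKM, adjusted p = 0.0251) and Des lower (14.8 ± 1.09 against 7.33 ± 0.743 FPKM, adjusted p = 0.0412, limma). Their sums overlapped, at 82.7 to 84.0 FPKM in WT and 73.9 to 91.9 in Calu-KO, with Rgs5 at 0 reads. None of 5 endothelial or 5 epithelial markers reached the filter. The part that these cell types have in the values of Vcan and Hapln4 was not tested.

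The 250 bases before the annotated start are shown for Vcan, which was lower in both Calu-KO libraries, and for Cd44, which was not, from the RefSeq promoter table (build GRCm38.p6). The Hyal2 window of that table lies inside the gene span used for the FPKM values, before a downstream start and partly over annotated exons, and is left out. Capitals mark matches to the GC box GGGCGG on either strand, the motif bound by SP1 family factors. The Vcan window is chr13:89742513-89742762 on the minus strand and the Cd44 window chr2:102901666-102901915 on the minus strand.
Vcan: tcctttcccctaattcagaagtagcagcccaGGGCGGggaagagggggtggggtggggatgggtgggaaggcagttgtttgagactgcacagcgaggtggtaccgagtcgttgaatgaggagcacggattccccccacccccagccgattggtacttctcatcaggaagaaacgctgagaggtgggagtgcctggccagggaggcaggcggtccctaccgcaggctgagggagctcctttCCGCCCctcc
Cd44: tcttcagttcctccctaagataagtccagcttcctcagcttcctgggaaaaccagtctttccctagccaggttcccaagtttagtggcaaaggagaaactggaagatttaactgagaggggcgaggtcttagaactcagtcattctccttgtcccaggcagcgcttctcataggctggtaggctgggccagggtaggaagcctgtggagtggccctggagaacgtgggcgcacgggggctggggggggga
The Vcan window held 2 GC boxes, starting 219 and 10 bases before the start, and the Cd44 window 0. A GC box was found in 32.7% of all 32851 windows of this length. The other 4 motifs were searched on both strands and found in neither window: the TATA box TATAAA (12.4% of all windows), the AP-1 site TGANTCA (6.75%), the TCF/LEF site CTTTGAT (3.21%) and the EGR1 site GCGNGGGCG (4.70%). CpG dinucleotides numbered 10 in the Vcan window and 5 in that of Cd44, where the median of all windows was 6. Among windows not shown, that of Acan, with at most 1 read in any library, held 3 GC boxes and 26 CpG dinucleotides. Those of Has1, Hapln1 and Hapln3 held 0 GC boxes. A link between GC boxes and the changes was not tested.

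Hapln4, which encodes a link protein known mainly from the perineuronal matrix of the brain, went from a low level to no reads. The gene (ENSMUSG00000007594, plus strand of chromosome 8, 70083457 to 70090862, mm10) had 2.26 and 2.50 FPKM in the WT libraries, from 145 and 163 reads. Both Calu-KO libraries had 0 reads. Set against 3 reads over the pair, the floor used for a count of 0, the Calu-KO level was at least 98.1-fold lower than in WT. On the log2(FPKM + 1) scale, which compresses low values, the change was -1.76 ± 0.18 (SE; adjusted p = 0.0266, limma). Because Hapln4 entered the test through WT alone, its p-values are a description and no support for the difference. The call ended without WT replicate 1 (adjusted p = 0.0706, limma), without WT replicate 2 (0.0746), with a pseudocount of 0.1 in place of 1 (0.0531) and with no filter on low values (0.110). Its adjusted p ranged from 0.00540 to 0.110 over the alternatives that kept all 4 libraries (limma).

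The other link protein genes were hardly detected. Hapln1, the classical cartilage link protein, was listed with 0 reads in every library. Hapln3, expressed more widely in the body, had at most 2 reads in a library. Acan, the cartilage hyalectan, had 1 read in Calu-KO replicate 1 and 0 in the other libraries. No fold is given for these 3 genes, which were at or under the floor of 3 reads in each group.

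Each link protein gene lies next to a hyalectan gene, with no protein-coding gene between them in the deposited table. Hapln1 and Vcan face each other on chromosome 13 across 43659 bases, Hapln3 and Acan on chromosome 7 are 2 bases apart, and Hapln4 and Ncan (neurocan) on chromosome 8 are separated by 2222 bases. The remaining pair, Hapln2 and Bcan (brevican), lies on chromosome 3 with 21519 bases between. Vcan was measured above 1 FPKM in every library while its neighbour Hapln1 was listed with 0 reads. Hapln4 was above 1 FPKM in WT beside Ncan, which had 2 reads in WT replicate 1 and 0 elsewhere. In the other pairs both neighbours had at most 2 reads in any library. The gene on the far side of Vcan, Xrcc4, a DNA repair gene, had a mean of 2.86 ± 0.225 FPKM in WT and 2.88 ± 0.332 in Calu-KO (SD, n = 2 each; adjusted p = 0.976, limma), and was looked up after the values of Vcan had been seen.

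**Figure D2:**
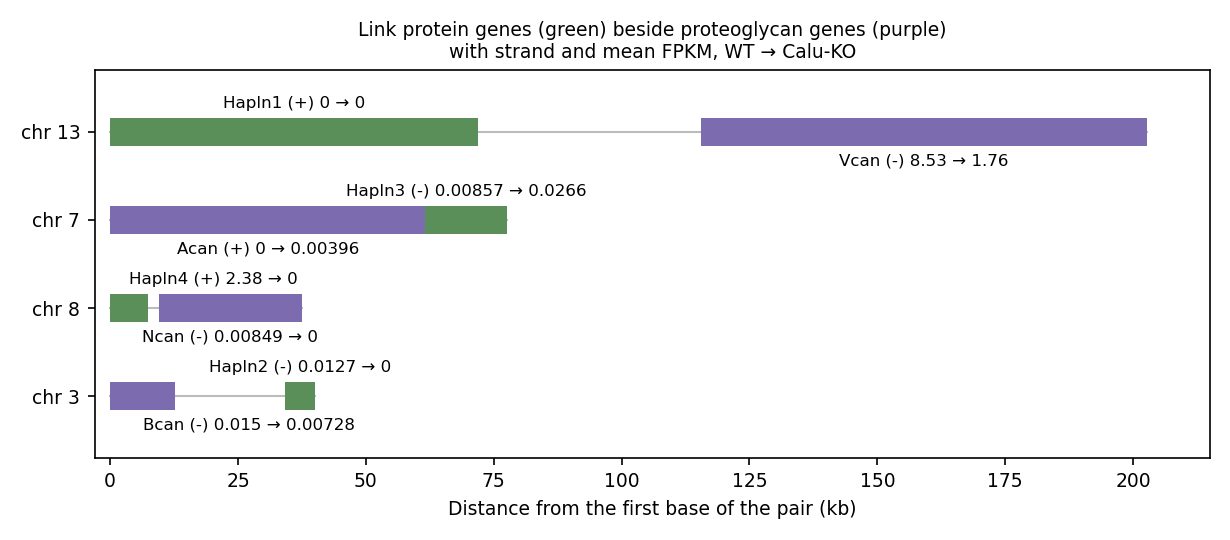
Map of the 4 link protein genes (green) and the hyalectan genes beside them (purple), with distance from the first base of each pair in kb on the horizontal axis, the strand and the mean FPKM in WT and in Calu-KO. Only Vcan and Hapln4 exceed 1 FPKM in WT, and they belong to different pairs.

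Few or no reads were assigned to the 3 hyaluronan synthase genes in any library. Has2, the synthase that usually dominates in mesenchymal cells, was listed with 0 reads in all 4 libraries, where 3 reads over a group would be 0.0215 FPKM in WT and 0.0225 in Calu-KO. Has3 had 0.115 and 0.151 FPKM in WT and 0.167 and 0.129 in Calu-KO, from 12 to 18 reads, and the groups overlapped. Has1 had 0.0946 and 0.0799 FPKM in WT (7 and 6 reads) and 0.196 and 0.136 in Calu-KO (15 and 9 reads), without overlap. The Has1 ratio of Calu-KO to WT was 1.93, with an exact 95% binomial interval of 0.945 to 4.13, and the Has3 ratio was 1.12 (0.647 to 1.95). Both intervals include equal levels and cover counting error only. Has1 and Has3 were under the filter, and with no filter on low values their adjusted p was 0.447 and 0.855 (limma).

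Counting could touch 2 of the synthase values. The strand setting of the counting is not given in the labels, so reads from overlapping genes cannot be told apart: 182 exonic bases of Has2 lie over the opposite-strand transcript Has2os, and 352 exonic bases of Has3 over Chtf8. Has2os had 0 reads in both WT libraries and 5 and 4 reads in Calu-KO, a gene looked up after its values were seen. The other 8 genes shared no exonic base with the exons of another gene in GENCODE M21. The spans of 2 of them do overlap an antisense gene, Gm4117 at the 5′ end of Vcan and Gm9917 at that of Hyal2. Gm4117 had 0.0749 and 0.0852 FPKM in WT and 0.134 and 0.124 in Calu-KO.

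Cd44 was the most abundant of the 10 genes and did not pass the test. It had 29.4 and 31.5 FPKM in WT and 23.6 and 32.2 in Calu-KO, so the Calu-KO libraries lay on either side of the WT pair. The change was -0.14 ± 0.17 in log2(FPKM + 1) (adjusted p = 0.639, limma). Its direction rested on which Calu-KO library entered, at 0.079 without Calu-KO replicate 1 and -0.35 without Calu-KO replicate 2. In both of these fits the spread within a group comes from the WT pair alone. In the alternatives that kept all 4 libraries Cd44 did not pass, with adjusted p-values from 0.318 to 0.702 (limma). The standard and variant forms of CD44 differ by alternative exons and are summed here.

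Hyal2 had 5.43 and 4.53 FPKM in WT and 3.20 and 2.62 in Calu-KO. Its groups did not overlap, and the mean was 1.71-fold lower in Calu-KO, but the change of -0.61 ± 0.15 did not pass over all genes (adjusted p = 0.108, limma). Without Calu-KO replicate 1, where the spread within a group comes from the WT pair alone, the change was -0.72. In the alternatives that kept all 4 libraries Hyal2 did not pass, with adjusted p-values from 0.0720 to 0.237 (limma). Hyal2 lies in a stretch of 19415 bases of chromosome 9 together with Hyal1, a lysosomal hyaluronidase, and Hyal3. Hyal1 had 3.20 ± 0.0240 FPKM in WT and 2.68 ± 0.442 in Calu-KO (SD, n = 2 each; adjusted p = 0.440, limma), and Hyal3 was under 1 FPKM in every library.

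Ratios within a library, which no scaling between libraries can move, were taken against Cd44. Vcan stood at 0.279 and 0.280 of the Cd44 level in the WT libraries and at 0.0588 and 0.0659 in the Calu-KO libraries, a 4.49-fold difference of the means. The 2 Calu-KO libraries, whose Vcan levels differed, were thus close relative to Cd44, but not relative to Hyal2 (0.435 and 0.811). Hapln4 stood at 0.0766 and 0.0794 of Cd44 in WT and at 0 in Calu-KO. For Hyal2 the ratios were 0.185 and 0.144 in WT and 0.135 and 0.0813 in Calu-KO, so the groups did not overlap by a narrow margin. Vcan exceeded Hyal2 in both WT libraries, at 1.51 and 1.95 times its level, and was below it in both Calu-KO libraries, at 0.435 and 0.811. An exact two-sided permutation test of 2 against 2 libraries cannot give less than p = 0.333, the value for each of these ratios.

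**Figure D3:**
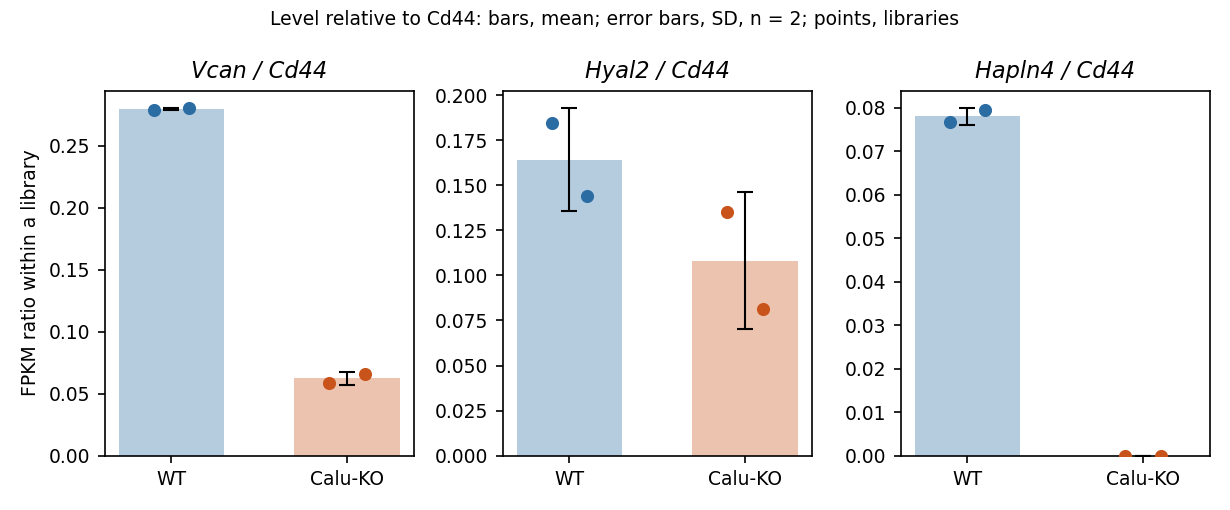
FPKM of Vcan, Hyal2 and Hapln4 divided by the FPKM of Cd44 in the same library; bars are means, error bars SD (n = 2) and points the libraries, and each panel has its own vertical scale from 0. The Vcan means are 0.280 in WT and 0.0624 in Calu-KO with narrow spread, those of Hyal2 0.164 and 0.108 with wide spread, and Hapln4 is at 0 in Calu-KO.

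The genes around the 10 were followed through 8 lists with 94 genes, of which 48 were tested. Of these 48, 1 was called higher and 2 lower, where 0.942% of all tested genes were called higher and 1.83% lower. Their median change was -0.04 against 0.01 for all tested genes. The counts in these lists, over so few genes, are a description and set no list apart.

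For the supply of hyaluronan's sugars, 5 of 7 genes were tested and none was called (median 0.04). Ugdh, which makes the UDP-glucuronic acid used by every hyaluronan synthase, averaged 44.04 ± 1.80 FPKM in WT and 45.2 ± 2.76 in Calu-KO (SD, n = 2 each; adjusted p = 0.856, limma). The largest change in the list was that of Gfpt1, the entry enzyme of the hexosamine pathway, at 0.59 ± 0.19 (13.9 ± 0.580 against 21.7 ± 5.40 FPKM; adjusted p = 0.153, limma). Transcripts of Ugdh and Gfpt1 were thus abundant in the same libraries in which synthase reads were few.

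Of 8 other genes of hyaluronan degradation, 5 were tested, with 1 called lower, none higher and a median of -0.12. The call was Hexa, a lysosomal hexosaminidase that acts on the ends of hyaluronan fragments among other substrates, with 35.6 and 35.2 FPKM in WT against 20.8 and 18.1 in Calu-KO (-0.84 ± 0.12, adjusted p = 0.0427, limma). The Hexa call held in 6 of 12 alternatives and ended without either WT replicate 1 or WT replicate 2. Those 6 include both fits without a Calu-KO library, where the spread within a group comes from the WT pair alone. In the alternatives that kept all 4 libraries its adjusted p was 0.0151 to 0.119 (limma). Tmem2, the former symbol of Cemip2, a cell-surface protein implicated in cutting hyaluronan, had 7.68 and 7.68 FPKM in WT and 8.95 and 12.4 in Calu-KO (adjusted p = 0.221, limma), while Cemip had at most 6 reads in any library.

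Of 16 other hyaluronan-binding and matrix assembly genes only Hmmr and Layn were tested, and neither was called. Layn, the hyaluronan receptor layilin, had 7.81 and 7.62 FPKM in WT and 3.83 and 6.34 in Calu-KO (-0.55 ± 0.22, adjusted p = 0.209, limma). Hmmr, a hyaluronan-binding protein that also acts on the mitotic spindle, had 24.9 and 26.0 FPKM in WT and 19.7 and 25.1 in Calu-KO. The list's median was -0.37. Lyve1, the hyaluronan receptor of lymphatic vessels, had 1 read in all, and Ptx3, which helps to cross-link hyaluronan, was listed with 0 reads.

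The sulphated chains of versican are made by a set of enzymes of which 22 were listed and 16 tested, with none called and a median of 0.02. The largest change was in Chst13, a chondroitin 4-sulphotransferase, with 1.51 and 1.89 FPKM in WT against 5.76 and 3.56 in Calu-KO (1.04 ± 0.23, adjusted p = 0.0895, limma). Dse, which converts chondroitin to dermatan sulphate, had 8.83 ± 0.0648 FPKM in WT and 13.4 ± 0.745 in Calu-KO (SD, n = 2 each; adjusted p = 0.0757, limma). Of the 16 tested genes 10 had a positive and 6 a negative change.

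Versican and aggrecan are cut by proteases of the ADAMTS family, of which 7 genes were listed and 2 tested, with 1 called higher. The median over those 2 was 0.92, but Adamts1 reached the filter through the Calu-KO libraries alone. Adamts5, a major aggrecanase that also cleaves versican, had 1.81 and 2.30 FPKM in WT and 5.56 and 7.48 in Calu-KO, a 3.17-fold higher mean (1.29 ± 0.18, adjusted p = 0.0427, limma). This call held in 7 of 12 alternatives and ended without WT replicate 1 or WT replicate 2. Those 7 include both fits without a Calu-KO library, where the spread within a group comes from the WT pair alone. In the alternatives that kept all 4 libraries its adjusted p was 0.00782 to 0.151 (limma). Adamts1, whose enzyme cuts versican at the same kind of site, had 0.760 and 0.647 FPKM in WT and 1.33 and 1.67 in Calu-KO, without overlap (0.55 ± 0.18, adjusted p = 0.163, limma).

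Of 10 matrix and cell-surface partners of versican, 6 were tested, all with a negative change (median -0.24), and 1 was called lower. Fbln2, fibulin 2, which binds the C-terminal domain of versican, had 99.7 and 99.8 FPKM in WT and 57.4 and 63.02 in Calu-KO (-0.72 ± 0.11, adjusted p = 0.0486, limma). The Fbln2 call was close to the threshold and held in 5 of 12 alternatives, and it ended without WT replicate 1 or WT replicate 2. Those 5 include both fits without a Calu-KO library, where the spread within a group comes from the WT pair alone. In the alternatives that kept all 4 libraries its adjusted p was 0.0255 to 0.126, and 0.0632 with the replicate block (limma). Tnc, the versican ligand tenascin C, had at most 2 reads in any library.

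Of 13 partners and processing genes of CD44, 10 were tested and none was called (5 positive and 5 negative changes, median -0.03). Cd74, the invariant chain, whose signalling as a surface receptor uses CD44, had the largest change, with 114 and 101 FPKM in WT and 50.04 and 31.4 in Calu-KO (-1.41 ± 0.24, adjusted p = 0.0571, limma). Of 11 cartilage genes, the setting in which Acan and Hapln1 are best known, 2 were tested and none was called. Col9a1, a cartilage collagen, had the larger change of the 2, from 1.54 ± 0.0858 FPKM in WT to 0.964 ± 0.122 in Calu-KO (SD, n = 2 each; adjusted p = 0.245, limma). The Calu-KO mean of Col9a1 was under 1 FPKM, so it reached the filter only through the higher WT values.

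**Figure D4:**
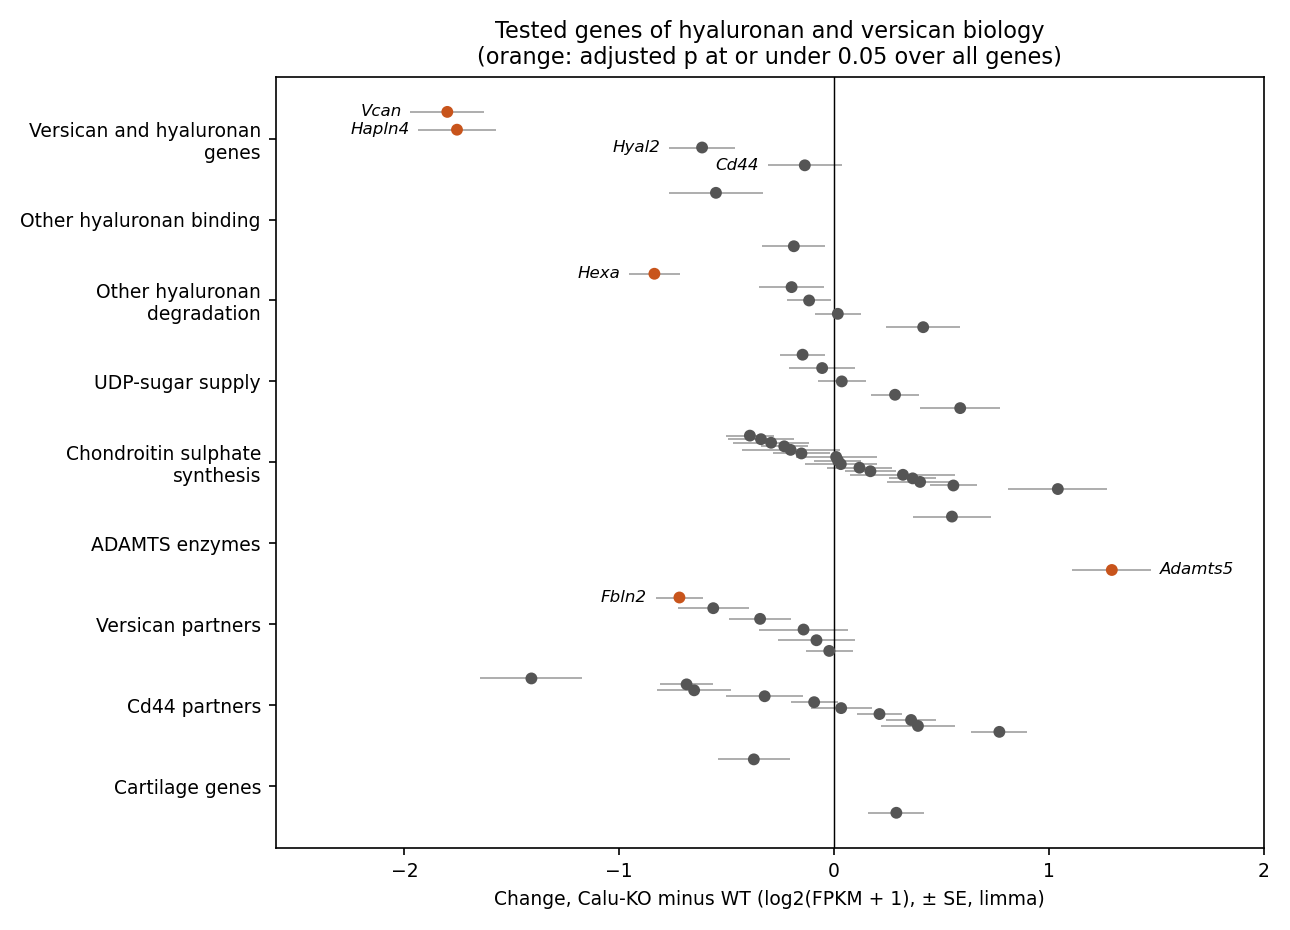
Change from WT to Calu-KO in log2(FPKM + 1) with its SE (horizontal axis) for the tested genes of the set and of the 8 lists around it (vertical axis); orange marks an adjusted p at or under 0.05 over all genes. Vcan and Hapln4 lie near -1.8, Hexa and Fbln2 are lower, Adamts5 is higher, and most other genes lie within 1 of 0.

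The genes whose 4 values lay closest to those of Vcan, by the Euclidean distance of log2(FPKM + 1) values centred on each gene's mean, were Hmga2, Fam78b, Mrc2, Avil and Slc44a1, among 10201 other tested protein-coding genes. Their distances were 0.151 to 0.256, and Hapln4 was in place 7 at 0.277. Hmga2, a chromatin protein of embryonic and proliferating mesenchyme, had 54.9 and 55.3 FPKM in WT and 14.8 and 17.9 in Calu-KO. Mrc2, an endocytic collagen receptor, had 35.1 and 33.6 FPKM in WT and 9.45 and 10.8 in Calu-KO. Avil, the actin-binding protein advillin, had 125 and 122 FPKM in WT and 31.9 and 34.2 in Calu-KO. Fam78b had 2.61 and 2.60 FPKM in WT and 0.0561 and 0.162 in Calu-KO, and Slc44a1, a choline transporter, 2.52 and 3.20 against 0.0341 and 0.0887. Choosing genes by these values fixes their direction, so no test is given, and Fam78b and Slc44a1 reached the filter through WT alone. Likeness over 4 libraries in 2 groups mostly reflects a similar difference between the groups in log2(FPKM + 1). That scale compresses low values, and as ratios of mean FPKM the differences were unlike. WT exceeded Calu-KO 4.85-fold for Vcan, and 3.36-fold to 3.73-fold for Hmga2, Mrc2 and Avil. For the low genes Fam78b and Slc44a1 the ratios were 23.8 and 46.5, and for Hapln4 at least 98.1.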

How the data were processed

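RNA was sequenced in 4 libraries, grouped by the sample descriptions. Per the labels' protocols, total RNA was extracted with TRIzol, sequenced in pairs on an Illumina NovaSeq and aligned by HISAT2 2.0.5. The build was mm10, per the submitters' processing notes. For the annotation, the counter and its strand setting, the sources used here name nothing. The authors deposited FPKM values per gene and library, already scaled between libraries. Multiplied by gene length, 100% of values in each library were whole multiples of one unit (tolerance 0.001), called a read here, whether a read or a pair was counted. The gene lengths equalled the exonic lengths of GENCODE M21 for all 10 genes.

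Values were analysed as log2(FPKM + 1), which understates changes of low genes. The 11885 genes averaging 1 FPKM or more were compared with limma 3.58.1 in R 4.3.3 (lmFit, then eBayes with a trended prior variance). Two-sided p-values were adjusted over all of them by the Benjamini-Hochberg method, with a threshold of 0.05. Fold differences are ratios of mean FPKM. A count of 0 is set at 3 reads over a group. Intervals (95%, exact binomial) and floors cover counting error only. The steps were tested on simulated data.

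The 10 genes and the lists around them were chosen with earlier results of these data known. Named genes are the 10, Calu, the 5 genes nearest to Vcan, and from each list up to 4 called genes or else the one with the largest change. Hmmr, Tmem2, Cemip, Ugdh, Dse, Adamts1, Hyal1, Hyal3, Gnpnat1, Xrcc4, Has2os, Chtf8, Gm4117, Gm9917 and genes named for having few reads were added after their values were seen, as were the 5 promoter motifs chosen. Promoters are from RefSeq, which had entries for 7 of the 10 genes, those of Has2, Has3 and Hapln4 not among them. Alternatives were other pseudocounts (0.1, 0.5) and filters (a mean of 0.2 FPKM, none), equal total reads, each library left out, a replicate block, limma-voom on the recovered reads and 1 prior variance for all genes.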

Additional observations from a re-analysis of the deposited data

How the results depend on the processing

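The depth limits the 6 genes under 1 FPKM, which had 0 to 18 reads per library, and with 2 libraries a group the numbers of calls depended on the setting. Against 112 higher and 217 lower genes, 0 and 0 passed with no filter on low values (limma; 3886 at an unadjusted p under 0.05), 44 and 131 with a filter of a mean of 0.2 FPKM, and 361 and 469 with limma-voom. Rescaling to equal total reads gave 45 higher and 152 lower, 22.8% higher among calls against 34.0%, with a median change of -0.09 over all tested genes. Leaving out 1 library gave 8 to 2926 higher and 34 to 2805 lower. With 1 library left in a group, it is assumed to vary like the other pair. Of the 10 genes, 2 were called lower, but 1 with a pseudocount of 0.1, 0 with no filter and 0 to 3 with a library left out (0 without WT replicate 1 or WT replicate 2). In the 8 lists, 1 gene was called higher and 2 lower. The numbers were 0 and 0 with no filter or with a mean of 0.2 FPKM, 3 and 4 with limma-voom and 0 to 13 and 0 to 11 with a library left out. None of them was higher with equal total reads (0), 1 was lower with a pseudocount of 0.1, and 0 were lower with 1 prior variance. Where a call was lost or gained, the cause was not tested.

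The log2 change of Cd44 went from -0.14 to 0.079 without Calu-KO replicate 1, and to -0.352 without Calu-KO replicate 2. The changes of Vcan, Hyal2, Hapln4, Hexa, Adamts5 and Fbln2 kept their sign in all 12 alternatives. The groups of each of these genes did not overlap. Leaving out a library, another pseudocount or filter, or the block could therefore not reverse the sign. The kept signs are a description and add no support, and Hexa, Adamts5 and Fbln2 were named because they were called. Hapln4 had also entered through WT alone.

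The libraries share replicate numbers across groups, but no label says that a number marks a shared animal or day, and deviations of same-numbered libraries correlated at 0.0153 across genes. With the replicate block 181 genes were higher and 312 lower, and in the lists 2 were higher. Vcan was called with it as well (adjusted p = 0.00516, limma). Hapln4 was also called (adjusted p = 0.0136, limma), but it had entered through WT alone, so that call supports nothing.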
